A study of Mus musculus with 8 samples.

Results

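The ribosome of the cytosol is built from ribosomal RNA and a fixed set of proteins, whose genes are named Rps for the small subunit and Rpl for the large subunit. The genes examined here are the rows of the deposited gene table whose symbol has the form of a cytosolic ribosomal protein gene (Rps or Rpl with a number, Rplp0 to Rplp2, or Rpsa), without symbols marked -ps. Of 87 such rows among 18438 genes, 85 reached a value of 10 in 2 or more of the 8 libraries and are called the members below. The 2 rows that did not pass were Rpl3l, the copy known from striated muscle, with values of 0 to 2.0, and Rpl32l, with 1.0 to 6.1. Just inside the limit was Rpl39l, with 8.6 and 12.2 in KO Treg, 12.1 and 2.6 in WT Treg, 11.3 and 3.8 in KO Teff and 2.0 and 8.6 in WT Teff (groups defined next). GENCODE annotates 81 members as protein coding and 4 as pseudogenes (Rps3a2, Rps3a3, Rps4l and Rpl6l).

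Messenger RNA was measured in splenic T cells that had been sorted from C57BL/6 mice on day 7 of experimental autoimmune encephalomyelitis (EAE). In this mouse model of multiple sclerosis, immunisation with the myelin protein MOG sets off an attack on the central nervous system. The 4 groups of 2 libraries were regulatory T cells (Treg, CD4+ CD25hi YFP+) from IRE1a-/- mice (KO Treg) and from WT mice (WT Treg), and effector T cells (Teff, CD4+ CD25- YFP-) from IRE1a-/- mice (KO Teff) and from WT mice (WT Teff). IRE1a, encoded by Ern1, senses misfolded protein in the endoplasmic reticulum. All groups had EAE, so there is no healthy baseline. The labels do not state what drives YFP, which cells carry the deletion, which part of Ern1 is removed, or that a group's 2 libraries are 2 different mice. The p-values therefore measure the spread between libraries, which may be technical.

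Ribosomal protein mRNAs are among the most abundant of a growing cell. Most begin with a C followed by a run of pyrimidines, the 5′ terminal oligopyrimidine (TOP) motif, through which the growth kinase mTORC1 and the RNA-binding protein LARP1 control their translation. Resting T cells that meet antigen are known to enlarge their ribosome pool before they divide. Mammalian genomes also hold many processed copies of these genes, so short reads of a member can match several places.

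Values are the authors' normalised read numbers, whose sum per library lay between 17504100 and 18751300. Differences were taken after adding 1 and taking log2, a scale that shrinks the changes of low genes, and are called at a limma p of 0.05 after Benjamini-Hochberg adjustment over 13358 tested genes. Ern1 had 326 and 359 in KO Treg, against 377 and 399 in WT Treg, and 458 and 453 in KO Teff, against 559 and 616 in WT Teff (adjusted p = 0.489 and 0.0902). Gene totals count transcripts of a disrupted allele too, so they do not test the genotype labels. Il2ra, which encodes CD25, followed the sort, with 8699 to 9012 in Treg and 436 to 690 in Teff. Foxp3, the Treg lineage factor, had 89.1 to 117 in Treg, against 2.1 and 8.3 in KO Teff and 0 in both WT Teff libraries. The summed values of 6 T cell markers were 59626 to 61858 in Treg and 67366 to 73217 in Teff.

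Between genotypes, several groups of near-identical rows departed from the other members. The sequences of 3 such groups show how few bases separate their rows. Each line gives a 50-base stretch of the reference transcript in GENCODE, with bases that differ within the group in capitals. The first group is Rps3a1 and its annotated pseudogenes, which are members too.
Rps3a1: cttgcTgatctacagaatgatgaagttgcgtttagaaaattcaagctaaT
Rps3a2: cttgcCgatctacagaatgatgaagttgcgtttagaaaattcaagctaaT
Rps3a3: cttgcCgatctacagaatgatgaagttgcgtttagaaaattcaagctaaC
The second is Rps18 and copies of it that are not members.
Rps18: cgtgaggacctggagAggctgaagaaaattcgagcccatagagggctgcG
Rps18-ps3: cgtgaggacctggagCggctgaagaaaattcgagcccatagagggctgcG
Rps18-ps6: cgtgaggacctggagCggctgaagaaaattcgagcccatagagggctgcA
The last is Rps7 and a copy of it that is not a member.
Rps7: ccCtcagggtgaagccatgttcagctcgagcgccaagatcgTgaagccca
Rps7-ps3: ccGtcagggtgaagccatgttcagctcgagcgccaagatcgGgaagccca

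Positions are counted from 1 at the 5′ end of the transcript of Rps3a1, Rps18 or Rps7. Relative to Rps3a1, the stretch shows T349C in both pseudogenes and T393C in Rps3a3 alone. Along all aligned bases, Rps3a2 differed from Rps3a1 at 4 of 792 positions and Rps3a3 at 9 of 795. Rps18-ps3 carries A394C relative to Rps18 and differed at 3 of 456 positions. Rps18-ps6 carries A394C and G428A and differed at 7 of 547. Rps7-ps3 carries C190G and T229G relative to Rps7 and differed at 4 of 635, with 1 gap. The reads were 50 bases long, so within the aligned bases a read that covers no differing base fits each row it aligns to equally well. Bases of the parent outside an alignment have no aligned counterpart in that copy but can occur in other genes. Rps3a1 shared 71.0% of its 50-base windows with another annotated gene, Rps18 86.7% and Rps7 70.3%.

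Start regions of members called higher in KO Teff (below) show the TOP motif and how unevenly it appears at annotated starts. Each line runs from 40 bases before the annotated start to 20 bases from it, from RefSeq's table on GRCm38.p6. Capitals mark a pyrimidine run of at least 5 that begins with C within 5 bases of the start, or the motif CCGGAAG, which ETS-family factors such as GABP bind. Rps3a1 lies at chr3:86142649-86142708 on the minus strand, Rps15 at chr10:80292391-80292450 on the plus strand, Rplp2 at chr7:141447611-141447670 on the plus strand and Rpl15 at chr14:18270967-18271026 on the minus strand. Rpl15 was chosen after its sequence was seen, for its long run.
Rps3a1: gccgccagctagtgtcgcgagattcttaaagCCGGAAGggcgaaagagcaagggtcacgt
Rps15: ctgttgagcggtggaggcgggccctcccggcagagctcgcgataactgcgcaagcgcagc
Rplp2: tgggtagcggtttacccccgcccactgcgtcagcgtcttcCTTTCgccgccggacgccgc
Rpl15: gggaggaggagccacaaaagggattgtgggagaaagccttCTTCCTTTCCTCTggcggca

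The table held start regions of 62 of 85 members. A run of C and at least 4 more pyrimidines within 5 bases of the annotated start was present in 29 of these (46.8%), against 21.2% of 27025 genes. CCGGAAG, on either strand of the 300-base window, was present in 26 (41.9%), against 9.93% of genes. AAGATGGC, the core that YY1 binds, was present in 6 (9.68%), against 3.19%. A missing match says only that these letters are not in that window.

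Levels differed widely among the members. Per kilobase of reference transcript, averaged over the 8 libraries, the median member had a normalised read number of 16351. Among the highest levels per kilobase were those of Rplp1 (79049), a protein of the stalk that recruits elongation factors, Rps15 (53236), of the small subunit head, Rpl13a (46664) and Rpsa (43643), also known as the laminin receptor precursor. At the low end stood Rps27l (402), a paralog known as a p53 target, Rpl5 (371), the pseudogenes Rpl6l (77.5) and Rps4l (24.7), and Rpl39l (13.9), a copy best known from testis. Rpl5 binds 5S ribosomal RNA and is needed in every ribosome. Its low level goes with a transcribed copy, Gm15500 on chromosome 7, which differed from it at 1 of 1019 aligned bases and had 25321 to 49911 across the libraries. The row Rpl5 held 2.1% of the sum of itself and its copies.

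How much of a member's signal sits under another row was measured for each. Of a member's 50-base windows, between 0% (Rpl39l among others) and 98.6% (Rps27) also occur in another annotated gene, and 51 members share at least 50% of theirs. In all, 364 copies (pseudogenes, predicted genes and Rps27rt) could be added to 68 members. Of the annotated pseudogene members, 3 were among the rows so added, which leaves 82 members. After adding, 21 members held under 50% of their sum in their own row, with Rpl12 at 5.3%, Rpl17 at 7.6% and Rpl27a at 13.9%, while 44 held over 95%. Single member rows are therefore uncertain, and the counts of members called in each comparison are also given with the copies added, an alternative chosen after the data were seen.

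The first comparison set Treg against Teff. Treg of both genotypes held less ribosomal protein mRNA than Teff, across both subunits. The members took 5.41% and 5.45% of the summed values in KO Treg, against 8.52% and 8.44% in KO Teff, and 5.44% and 5.44% in WT Treg, against 7.12% and 7.53% in WT Teff. Treg and Teff libraries did not overlap. Small subunit members took 2.46% to 2.50% of Treg libraries and 3.25% to 3.82% of Teff libraries, and large subunit members 2.95% of every Treg library and 3.87% to 4.70% of Teff libraries. With copies added the shares were 7.23% to 7.33% in Treg and 9.52% to 11.5% in Teff. In bulk RNA, fewer cells of a kind and less RNA per cell cannot be told apart.

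**Figure D1:**
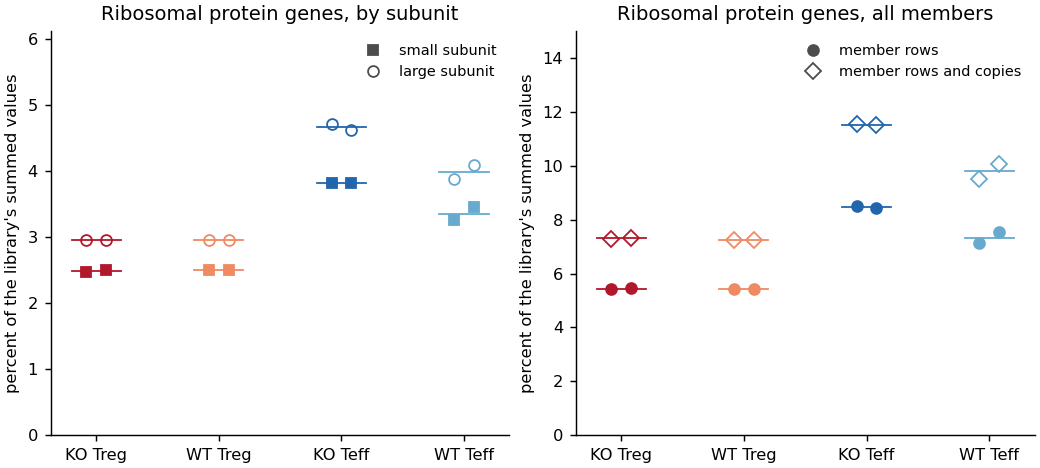
Share of each library's summed normalised read numbers (percent, y axis) taken by the members, for KO Treg, WT Treg, KO Teff and WT Teff; points are libraries and bars are means of 2. The left panel splits the members by subunit and the right panel adds the sequence copies: the Treg libraries sit together near 5.4%, the WT Teff libraries at 7.12% and 7.53%, and the KO Teff libraries at 8.52% and 8.44%.

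In KO cells, 74 of 85 members were lower in Treg and 0 were higher, where 11.2% of all tested genes were lower and 15.7% higher, 26.9% in all (limma, 79 members with an unadjusted p below 0.05, 1 of them higher). In WT cells, 69 were lower and 0 higher, where 11.6% of all tested genes were lower and 13.5% higher, 25.1% in all (75 members with an unadjusted p below 0.05, 2 of them higher). Of 13358 tested genes, 5159 had an unadjusted p below 0.05 in KO (2824 of them higher) and 4895 in WT (2552 of them higher). Both Treg libraries lay below both Teff libraries for 80 members in KO and 78 in WT, and above them for 1 and 4, where 32.1% and 31.5% of all tested genes lay below and 32.9% and 32% above. With copies added, 76 of 82 were lower in KO and 75 in WT, and 0 higher, where 11.1% and 11.6% of tested rows were lower and 16.1% and 13.8% higher. The median log2 difference of the members was -0.75 in KO and -0.47 in WT, against 0.00 in both over all tested genes. The same 68 members were lower in both genotypes. By subunit, 30 of 35 small subunit and 44 of 50 large subunit members were lower in KO Treg, and 29 and 40 in WT Treg. Called differences ran from -1.18 to -0.38 in KO and from -0.88 to -0.22 in WT. Over all alternatives the member median stayed between -0.77 and -0.58 in KO and between -0.54 and -0.37 in WT.

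Rps20, a protein of the small subunit head, had 4590 and 4519 in KO Treg, against 9703 and 9266 in KO Teff (log2 difference -1.06, SE 0.05, adjusted p = 1.52e-05). Its WT values were 4469 and 4454 in Treg, against 7071 and 7398 in Teff (-0.70, SE 0.05, adjusted p = 0.000105). The 4 Treg libraries lay close together, and the Teff libraries lay above them, with KO Teff highest.

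Rps6, the substrate of the S6 kinases that act below mTORC1, had 12619 and 12572 in KO Treg, against 20163 and 21129 in KO Teff (-0.71, SE 0.04, adjusted p = 4.19e-05). In WT it had 13286 and 12769 in Treg, against 17965 and 18040 in Teff (-0.47, SE 0.04, adjusted p = 0.000373). Rps15 changed by -0.63 in KO and -0.36 in WT (adjusted p = 3.44e-05 and 0.000482). For Rps28 the differences were -1.05 and -0.80 (adjusted p = 4.2e-05 and 0.000185), for Rps21 -0.99 and -0.76 (adjusted p = 7.7e-05 and 0.00036) and for Rps24, one of the genes mutated in Diamond-Blackfan anaemia in humans, -0.87 and -0.63 (adjusted p = 5.44e-05 and 0.0003). Each of these was lower in every Treg library than in every Teff library.

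The stalk proteins Rplp0, Rplp1 and Rplp2, which form the landing site of elongation factors on the large subunit, were lower in Treg in both genotypes. Rplp1 had 29067 and 29703 in KO Treg, against 54698 and 53188 in KO Teff (-0.88, SE 0.06, adjusted p = 5.32e-05), and 30063 and 28743 in WT Treg, against 42648 and 47453 in WT Teff (-0.61, SE 0.06, adjusted p = 0.000346). Rplp0 changed by -0.68 in KO and -0.43 in WT (adjusted p = 9.89e-05 and 0.00101), and Rplp2 by -0.62 and -0.24 (adjusted p = 0.00015 and 0.0133). In WT, the Rplp2 call was lost in 5 of 22 alternatives (adjusted p up to 0.0942).

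Of the 85 members, 10 were called in neither genotype. They include Rps2, well expressed at 31791 and 32060 in KO Treg, against 34321 and 37169 in KO Teff (-0.16, SE 0.06, adjusted p = 0.111), and at 29430 and 31739 in WT Treg, against 32958 and 29958 in WT Teff (-0.04, SE 0.06, adjusted p = 0.704). Rps2 was chosen after its values were seen. Rps27l had 230 and 185 in KO Treg, against 168 and 189 in KO Teff, and 250 and 236 in WT Treg, against 182 and 167 in WT Teff. Its differences were 0.21 and 0.48 (adjusted p = 0.375 and 0.0675), whereas its paralog Rps27 was lower in Treg, with differences of -0.78 in KO and -0.79 in WT (adjusted p = 0.00116 and 0.00132). Rpl7l1 differed by -0.15 and -0.07 (adjusted p = 0.215 and 0.551), and Rpl7 by -0.77 and -0.47 (adjusted p = 5.44e-05 and 0.000614). The 10 also held the low rows Rps4l, Rpl39l and Rpl6l, and Rps3a3, Rps13, Rpl5 and Rpl10a, of whose sums with their copies at most 22.6% stood in the row of Rps13, Rpl5 or Rpl10a.

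Other paralogs were read beside their partners. Rpl22, which is needed for normal T cell development in mice, was lower in Treg, with differences of -0.74 in KO and -0.52 in WT (adjusted p = 0.000595 and 0.00368). Its paralog Rpl22l1 differed by -0.51 and -0.67 (adjusted p = 0.0675 and 0.0283). Rpl36a and Rpl36al were both lower, with differences of -1.02 and -0.72 in KO and -0.61 and -0.49 in WT (adjusted p at most 0.00822). Rpl3, Rpl10, Rpl39, Rps4x, Rps27a and Rpsa were lower in both genotypes, with differences of -0.89 to -0.52 in KO and -0.53 to -0.22 in WT (adjusted p at most 0.00129 and 0.0184). In WT, the calls of Rpl22l1 and Rps27a were lost in 4 of 22 alternatives each, that of Rpl39 in 3, Rpl3 in 2 and Rpl36a in 1.

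**Figure D2:**
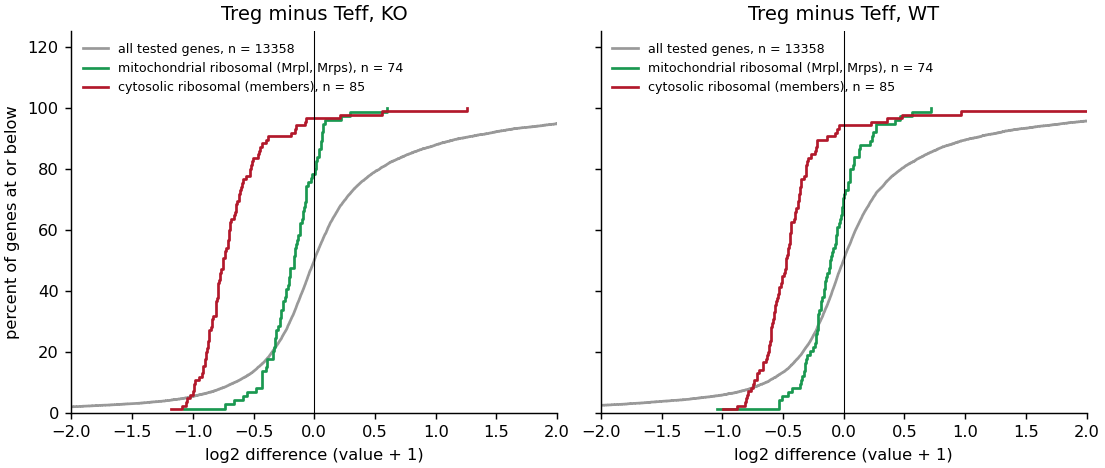
Cumulative share of genes (percent, y axis) at or below each Treg minus Teff log2 difference (x axis, limited to -2 to 2), in KO cells (left) and WT cells (right), for members, mitochondrial ribosomal protein genes and all tested genes. The member curve lies left of the others, with medians of -0.75 in KO and -0.47 in WT.

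Other genes of the translation machinery were read from lists. Over all tested genes, 11.2% were lower and 15.7% higher in KO Treg than in KO Teff, and 11.6% and 13.5% in WT. In WT, 4895 of 13358 tested genes had an unadjusted p below 0.05 (limma). Among 20 tested genes of elongation factors and other TOP mRNAs, 13 were lower and 1 higher in KO Treg than in KO Teff, and 10 were lower and 0 higher in WT (14 with an unadjusted p below 0.05, 1 of them higher), with medians of -0.35 and -0.20. Tpt1, a classic TOP mRNA, had 36441 and 36221 in KO Treg, against 64647 and 64263 in KO Teff (-0.83), and 34112 and 33535 in WT Treg, against 51046 and 54343 in WT Teff (-0.64). Rack1, which sits on the small subunit, changed by -0.59 and -0.37, and Eef1b2 by -0.74 and -0.47. Vim, a TOP mRNA that encodes an intermediate filament, was the gene that was higher in KO Treg (0.42).

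The factors that build ribosomes came next, again beside 11.2% of all tested genes lower in KO Treg and 11.6% lower in WT Treg. Of 65 tested biogenesis factors, 13 were lower and 1 higher in KO Treg (median -0.14), and 3 were lower and 2 higher in WT Treg (median -0.06). Of 15 RNA polymerase I genes, 4 were lower in KO and 0 in WT, where 1 had an unadjusted p below 0.05. Of 31 initiation factors, 8 were lower and 1 higher in KO, and 4 and 1 in WT. Mitochondrial ribosomal protein genes, which serve another ribosome, had 11 of 74 lower and 1 higher in KO (median -0.17), and 8 and 2 in WT (median -0.11). In WT, lower initiation factors and mitochondrial ribosomal protein genes were near the share over all tested genes, and lower biogenesis factors below it. Among 25 regulators of TOP mRNAs and ribosomal protein transcription, 4 were higher and 2 lower in KO, and 6 and 3 in WT. Over all tested genes, 15.7% were higher in KO Treg and 13.5% in WT Treg. Higher regulators in KO were thus near the share over all tested genes. Myc, a driver of ribosome production, had 3306 and 3426 in KO Treg, against 2210 and 2273 in KO Teff (0.59), and 3177 and 3338 in WT Treg, against 1942 and 1876 in WT Teff (0.77). Gabpb1, a subunit of GABP, was higher by 0.79 and 0.65, and Larp1 by 0.24 and 0.35. Rictor, a subunit of mTORC2, was lower, with differences of -0.54 and -0.49.

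Markers of other cells moved with this comparison. The 6 myeloid markers in the table summed to 4380 and 4492 in KO Treg, against 512 and 596 in KO Teff, and to 7284 and 7430 in WT Treg, against 889 and 1222 in WT Teff. Csf1r and C1qa made up most of the Treg sums. Lyz2, at 35 to 186 across the libraries, was also higher in Treg within each genotype. Itgam was lower in WT Treg, with 77.3 and 27.95, against 186.3 and 330.2 in WT Teff. Itgam overlapped in KO, and S100a8 overlapped in both genotypes. The 3 erythroid markers summed to 359 to 515 in Treg and 44.8 to 90.9 in Teff. The 3 NK cell markers ran the other way, at 47.6 to 74.8 in Treg, where Ncr1 was at 0, and 430 to 749 in Teff. Sums of the 7 B cell markers were 349.6 to 513 in Treg and 102 to 261 in Teff. The 3 plasma cell markers, mostly Prdm1, gave 1225 to 1352 in Treg and 333 to 555 in Teff. The 2 of CD8 T cells gave 248 to 295 and 249.96 to 289. Sums of the 4 plasmacytoid dendritic cell markers overlapped, at 1098 to 1258 in Treg and 1129 to 1929 in Teff. Of these 4, Bst2 and Tcf4 overlapped, and Bst2 was at 792.5 to 1069.6 across the libraries. Siglech was lower in Treg, at 1.35 to 5.28, against 50.5 to 215.8 in Teff. Ccr9 was lower too, at 80.5 to 124.7 in Treg, against 221.6 to 377.9 in Teff. The part of these cells in the ribosomal differences was not tested.

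KO Teff were then set against WT Teff. KO Teff held slightly more ribosomal protein mRNA than WT Teff, in both subunits and by similar small amounts per gene. Of 85 members, 28 rose and 3 fell, where 1.84% of all tested genes rose and 5.08% fell, 6.92% in all (limma; 56 members with an unadjusted p below 0.05, 52 of them higher). Of 13358 tested genes, 2881 had an unadjusted p below 0.05, 1049 of them higher. The member median was 0.25, against -0.02 over all tested genes, and 78 members lay above 0. Both KO libraries lay above both WT libraries for 56 members and below them for 5, where this held for 22.4% and 27.4% of all tested genes. The rises other than those of Rps3a1 and Rps13 were of 0.20 to 0.47.

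By subunit, 14 of 35 small subunit members rose and 3 fell, and 14 of 50 large subunit members rose and 0 fell. With copies added, 33 of 82 rose and 0 fell, where 1.79% of tested rows rose and 5.16% fell, and their median was 0.24. In the authors' deposited table, 39 of 84 members with an adjusted p were higher and 3 lower at 0.05, where 2.55% and 6.27% of its genes were.

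The number of calls depended on the fit. With only the Teff groups fitted, 1 member rose and 1 fell, and without limma's trend and robust steps 1 rose and 2 fell. Quantile normalisation left 16 of the 28 rises. How many of all tested genes these fits called is not reported here, so the counts do not show whether the loss was particular to members. In the fits without a library, fewer members and also fewer of all tested genes were called. These fits leave 1 library in a group, so only their member medians are given, 0.18 to 0.30. The member median was between 0.18 and 0.30 in all 22 alternatives. The WT Teff libraries themselves stood apart: replicate 2 was above replicate 1 in 65 of 85 members, by a median of 0.15 on the log2 scale. Marker sums moved with genotype too: the myeloid sum was 512 and 596 in KO Teff, against 889 and 1222 in WT Teff, the NK sum 430 and 525 in KO Teff, against 669 and 749 in WT Teff, and the T cell sum 67366 and 68696 in KO Teff, against 72752 and 73217 in WT Teff. The sum of the 7 Treg markers was 6460 and 7262 in KO Teff, against 9059 and 10305 in WT Teff. Of these markers, Ikzf2, Ctla4, Tnfrsf18 and Il2ra were lower in both KO Teff libraries, and Ikzf4 and Lrrc32 overlapped. Foxp3 was higher, at 2.1 and 8.3 in KO Teff, against 0 in both WT Teff libraries (limma adjusted p = 0.0419). The plasma cell, plasmacytoid dendritic cell and erythroid sums were 333 to 376, 1129 to 1396 and 44.8 to 47.7 in KO Teff, against 507 to 555, 1483 to 1929 and 58.8 to 90.9 in WT Teff. Sums of B cell and CD8 T cell markers overlapped, and Pax5, on the B cell list, had 9.06 and 168 in KO Teff, against 12.6 and 17.7 in WT Teff. The part of these in the rise was not tested.

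**Figure D3:**
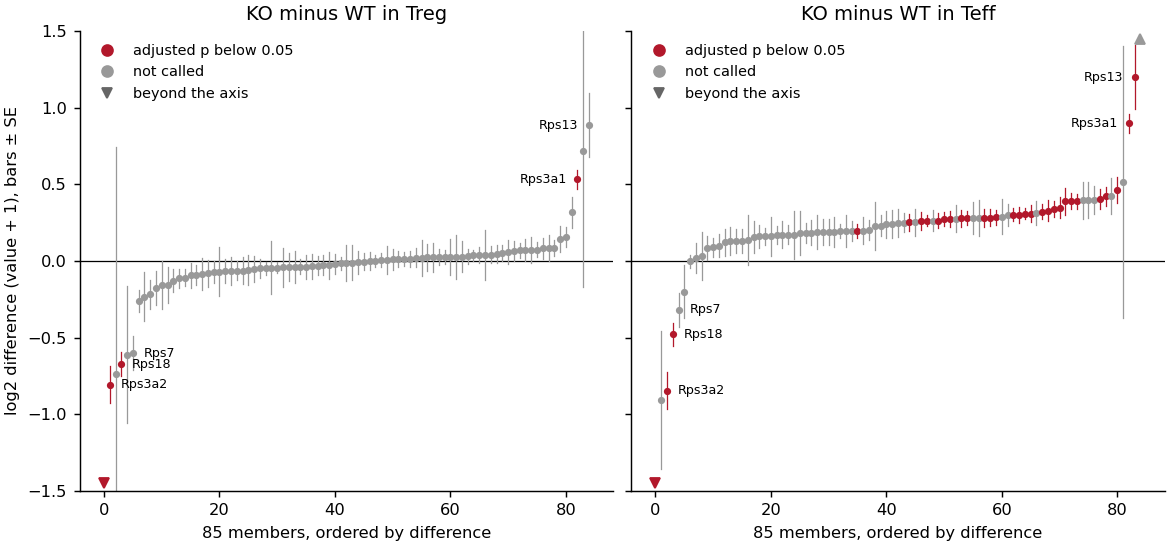
KO minus WT log2 difference (y axis, bars ± SE) of the 85 members, ordered by size, in Treg (left) and Teff (right); red points have an adjusted p below 0.05 and triangles lie beyond the axis. The middle 50% of members lie between -0.07 and 0.03 in Treg and between 0.17 and 0.30 in Teff; the labelled genes have near-identical copies, the downward triangles are Rps3a3 and the upward one is Rpl6l (3.49, not called).

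Rps15 had 34564 and 34570 in KO Teff, against 27761 and 28067 in WT Teff (log2 difference 0.31, SE 0.04, adjusted p = 0.00523). Over 22 alternatives its adjusted p ran from 0.00484 to 0.0732. Rps20 had 9703 and 9266 in KO Teff, against 7071 and 7398 in WT Teff (0.39, SE 0.05, adjusted p = 0.00677, 0.00489 to 0.0596 over the alternatives). For both genes the KO Teff libraries lay above the WT Teff libraries.

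On the large subunit, Rpl3, which reaches towards the peptidyl transferase centre, had 34519 and 34734 in KO Teff, against 28883 and 28820 in WT Teff (0.26, SE 0.04, adjusted p = 0.0100, up to 0.166 over the alternatives). Stalk proteins rose together. Rplp2 had 12947 and 13622 in KO Teff, against 10272 and 9994 in WT Teff (0.39, SE 0.05, adjusted p = 0.00752). Rplp0 had 69867 and 75857 in KO Teff, against 60671 and 59725 in WT Teff (0.27, SE 0.05, adjusted p = 0.0249). Rplp1 had 54698 and 53188 in KO Teff, against 42648 and 47453 in WT Teff (0.26, SE 0.06, adjusted p = 0.0384). The calls of Rplp0 and Rplp1 were lost in 8 and 10 of 22 alternatives.

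Rps6 rose by 0.20 (SE 0.04, adjusted p = 0.0420), and that call was lost in 13 of 22 alternatives. Rps4x, Rpl7 and Rpl39 rose by 0.28, 0.26 and 0.35 (adjusted p = 0.0391, 0.0264 and 0.0313), and these calls were lost in 11, 9 and 9 of 22 alternatives. Not called were Rpsa at 0.09, Rpl10 at 0.10, Rpl22 at 0.19, Rps27a at 0.19 and Rpl36a at 0.40 (adjusted p = 0.464, 0.503, 0.250, 0.385 and 0.0971). Rps27, with 12223 and 11972 in KO Teff, against 10604 and 13428 in WT Teff, differed by 0.02 (adjusted p = 0.935). Its copy Rps27rt, on chromosome 9, had 17107 and 17013 in KO Teff, against 12622 and 13281 in WT Teff (0.40, adjusted p = 0.0214), and their sum differed by 0.23 (adjusted p = 0.130).

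**Figure D4:**
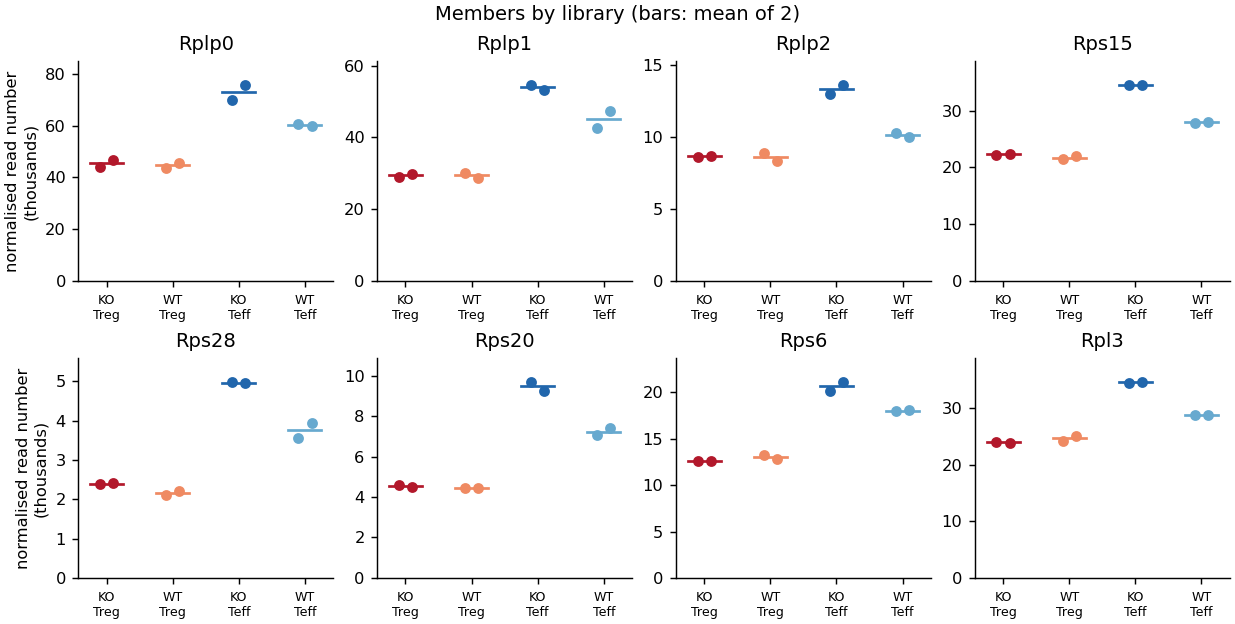
Normalised read number (y axis from 0, scaled as its label says) of 8 members in each library of KO Treg, WT Treg, KO Teff and WT Teff; points are libraries and bars are means of 2. In each panel the KO Teff points lie highest, the WT Teff points next, and KO and WT Treg points lie together at the bottom.

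Among the 20 elongation and TOP genes, 6 rose and 1 fell in KO Teff (median 0.19). Over all tested genes, 1.84% rose and 5.08% fell, and 2881 of 13358 had an unadjusted p below 0.05 (limma). Tpt1 rose by 0.29 (adjusted p = 0.0098), with 64647 and 64263 in KO Teff, against 51046 and 54343 in WT Teff. Eef2, the translocation factor of elongation, rose by 0.26, with 87645 and 86301 in KO Teff, against 73343 and 72380 in WT Teff (adjusted p = 0.0109). Rack1 rose by 0.26 and Vim changed by -0.26. Of 65 biogenesis factors 1 rose (Gnl3, a nucleolar GTPase, 0.33) and the median was 0.15. None of 31 initiation factors was called (4 with an unadjusted p below 0.05), nor any of 25 regulators (3 with one), and of 15 RNA polymerase I genes 1 fell (Taf1b, -0.46). Mitochondrial ribosomal protein genes had 1 rise (Mrpl38, 0.52) and 1 fall (Mrpl18, -0.39) of 74, and a median of 0.05.

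The third comparison set KO Treg against WT Treg. In Treg the members differed little by genotype: 1 rose and 3 fell, where 0.674% of all tested genes rose and 0.779% fell, 1.45% in all (10 members with an unadjusted p below 0.05). Of 13358 tested genes, 1964 had an unadjusted p below 0.05. The member median was -0.01, as it was over all tested genes. Between the quartiles the members ran from -0.07 to 0.03, against -0.19 to 0.14 over all tested genes. Both KO libraries lay above both WT libraries for 16 members and below them for 26, where 22.8% and 25.9% of all tested genes did. All 4 called members, Rps3a1, Rps3a2, Rps3a3 and Rps18, were also called in Teff, with the same sign. With copies added, 0 of 82 were called, where 0.662% of tested rows rose and 0.754% fell (limma). The authors' deposited table called 2 of 85 higher and 4 lower, where 1.4% and 1.87% of its genes were, adding Rps13 (0.90) and Rps7 (-0.60). The myeloid marker sum was 4380 and 4492 in KO Treg, against 7284 and 7430 in WT Treg, and the Treg marker sum 56213 and 56501 in KO Treg, against 58591 and 58859 in WT Treg. The Treg markers went both ways. Ikzf2, Ctla4, Tnfrsf18 and Il2ra were lower in both KO Treg libraries, and Ikzf4 overlapped. Lrrc32 was higher, at 6827 and 7847 in KO Treg, against 3312 and 3073 in WT Treg. Foxp3 had 111 and 117 in KO Treg, against 89.1 and 92.2 in WT Treg, and was not called (limma adjusted p = 0.844). The sum of the 7 B cell markers was 499 and 513 in KO Treg, against 349.6 and 361 in WT Treg. Of these markers, Pax5 had 178 and 162 in KO Treg, against 5.7 and 2.9 in WT Treg, while Cd79b had 186 and 224 in KO Treg, against 230 and 253 in WT Treg. The plasma cell, NK and erythroid sums were 1225 to 1286, 47.6 to 49.8 and 359 to 388 in KO Treg, against 1327 to 1352, 58.9 to 74.8 and 393 to 515 in WT Treg. The part of these in the differences was not tested.

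Without any one of the Treg libraries fewer members were called, and also fewer of all tested genes. Rps3a3 differed by -6.82 to -6.38 over its alternatives. Rps15 had 22113 and 22430 in KO Treg, against 21499 and 21938 in WT Treg (0.04, SE 0.04, adjusted p = 0.712). Rplp0, Rplp1 and Rplp2 differed by 0.02, 0.00 and 0.01, and Rps6 by -0.05. Of the translation lists, 1 gene was called, Vim (0.28, adjusted p = 0.0414), with 11277 and 11395 in KO Treg, against 9076 and 9547 in WT Treg. Over all tested genes, 1.45% were called, and 1964 of 13358 had an unadjusted p below 0.05 (limma). Biogenesis factors had a median of 0.00, with 0 of 65 called (6 with an unadjusted p below 0.05). Likewise 0 were called of 31 initiation factors (5 with an unadjusted p below 0.05), 15 RNA polymerase I genes (3), 25 regulators (2) and 74 mitochondrial ribosomal protein genes (7).

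Whether the KO effect differed between the cell types was tested directly. None of the 85 members was called, where 0.0225% of all tested genes were (limma; 40 members with an unadjusted p below 0.05, all 40 with the lower KO minus WT value in Treg). Of 13358 tested genes, 1384 had an unadjusted p below 0.05, 517 of them with the lower KO minus WT value in Treg. With copies added none of 82 members was called either, where 0.0228% of tested rows were. The difference of effects, Treg minus Teff, had a median of -0.26 among members and 0.02 over all tested genes. It was -0.31 for Rpl3 (SE 0.05, adjusted p = 0.128), -0.27 for Rps15 (SE 0.05, adjusted p = 0.147) and -0.38 for Rplp2 (SE 0.07, adjusted p = 0.151). A difference between the cell types was thus not shown for any single member. For the 28 members that rose in KO Teff, the KO minus WT differences in Treg ran from -0.11 to 0.89 with a median of 0.02.

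The rows read here as departing from the other members had near-identical copies, and the groups of Rps3a1, Rps18 and Rps7 are shown above. Copies were not particular to these rows, as 68 of 82 members had at least 1. Rps3a1 (chromosome 3, 86137940 to 86142702 on GRCm38), a protein of the small subunit platform, rose in both cell types. It had 24049 and 22768 in KO Treg, against 16207 and 16140 in WT Treg (0.53, SE 0.06, adjusted p = 0.00978), and 40923.5 and 40934 in KO Teff, against 20628 and 23382 in WT Teff (0.90, SE 0.06, adjusted p = 0.000844).

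Its pseudogene Rps3a3 (chromosome 13, 108670603 to 108671397) was nearly empty in KO. It had 38.4 and 32.4 in KO Treg, against 3884 and 3655 in WT Treg (-6.70, SE 0.31, adjusted p = 0.000126), and 41.3 and 87.5 in KO Teff, against 6861 and 8241 in WT Teff (-6.94, SE 0.31, adjusted p = 0.00013). Rps3a2 (chromosome 14, 88123017 to 88123808) had 6315 and 7493 in KO Treg, against 12097 and 11979 in WT Treg (-0.81, adjusted p = 0.0277), and 12295 and 10160 in KO Teff, against 18535 and 21781 in WT Teff (-0.85, adjusted p = 0.0105). Summed over the family with its copies, KO minus WT was -0.08 in Treg and 0.07 in Teff (adjusted p = 0.664 and 0.585). In KO, Rps3a1 was thus higher and both pseudogenes lower, and their sum was not called. For this group and for those of Rps18, Rps7 and Rps13, altered transcription of a row cannot be told apart here from reads placed on another row of its group. Whether KO and WT mice carry different bases in these rows was not tested.

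Rps18 (chromosome 17, 33951999 to 33956001) fell in both cell types. Its values were 7973 and 7590 in KO Treg, against 12305 and 12509 in WT Treg (-0.67, SE 0.08, adjusted p = 0.00839), and 13150 and 12252 in KO Teff, against 16417 and 19081 in WT Teff (-0.48, SE 0.08, adjusted p = 0.0147). The copies Rps18-ps6 and Rps18-ps3 were high in KO and near 0 in WT. Rps18-ps6 (chromosome 13, 97760072 to 97760632), which GENCODE lists as protein coding, had 5251 and 5614 in KO Treg, against 29.4 and 31.4 in WT Treg, and 10462 and 9538 in KO Teff, against 22.1 and 51.4 in WT Teff (7.43 in Treg and 8.17 in Teff, adjusted p = 0.000103 and 7.4e-05). Rps18-ps3 (chromosome 8, 107262793 to 107263248) had 1703 and 1902 in KO Treg, against 7.8 and 6.9 in WT Treg, and 3106 and 3172 in KO Teff, against 6.0 and 64.5 in WT Teff (7.75 and 7.19, adjusted p = 0.00795 and 0.00559). With copies added, Rps18 turned to 0.27 in Treg (adjusted p = 0.151) and 0.54 in Teff (adjusted p = 0.00909).

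**Figure D5:**
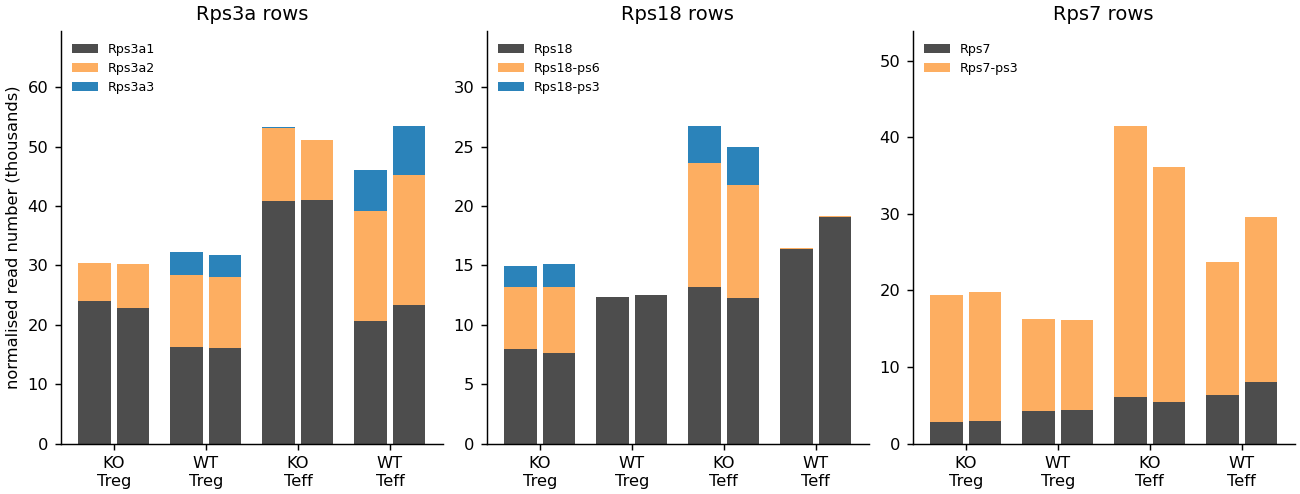
Normalised read numbers (y axis from 0, scaled as its label says) of the rows of the Rps3a, Rps18 and Rps7 groups, stacked, for the 2 libraries each of KO Treg, WT Treg, KO Teff and WT Teff. The Rps3a3 part is plain in WT bars and barely visible in KO bars, the Rps18-ps6 and Rps18-ps3 parts are plain in KO bars and barely visible in WT bars, and the Rps7 part is smaller in KO than in WT while Rps7-ps3 is larger.

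Rps7 had 2867 and 2896 in KO Treg, against 4312 and 4437 in WT Treg (-0.60, SE 0.11, adjusted p = 0.0567), and 6140 and 5369 in KO Teff, against 6384 and 8032 in WT Teff (-0.32, SE 0.11, adjusted p = 0.151). Its copy Rps7-ps3 on chromosome X held more, at 16527 and 16862 in KO Treg, against 11962 and 11672 in WT Treg (0.50, adjusted p = 0.0773), and 35295 and 30748 in KO Teff, against 17348 and 21592 in WT Teff (0.77, adjusted p = 0.00893). Their sum, with a further copy, differed by 0.27 in Treg and rose by 0.54 in Teff (adjusted p = 0.293 and 0.0274). Rps13 had 3525 and 2522 in KO Treg, against 1759 and 1478 in WT Treg (0.89, adjusted p = 0.106), and 4147.5 and 4993 in KO Teff, against 2340 and 1678 in WT Teff (1.20, adjusted p = 0.0199). Its copy Rps13-ps2 had 5906 and 6798 in KO Teff, against 3833 and 3590 in WT Teff (0.77, limma adjusted p = 0.00299). In Treg, Rps13-ps2 differed by 0.33 (adjusted p = 0.0992). Rps13-ps1 differed by -0.10 in Teff and -0.14 in Treg (adjusted p = 0.497 and 0.429). Rps13 and Rps13-ps2 thus moved the same way, whereas Rps3a1, Rps18 and Rps7 moved opposite to the copies named with them. Summed with its copies, Rps13 differed by 0.24 in Treg and 0.50 in Teff (adjusted p = 0.229 and 0.0161).

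Leaving out Rps3a1, Rps18, Rps7, Rps13 and the pseudogenes leaves 77 members. Among them 26 rose and 0 fell in KO Teff (median 0.25), and 0 were called in KO Treg (limma; 4 with an unadjusted p below 0.05, median -0.01). Over all tested genes, 1.84% rose and 5.08% fell in KO Teff. In KO Treg 1.45% were called, and 1964 of 13358 had an unadjusted p below 0.05. In Treg against Teff, 70 of the 77 were lower in KO and 65 in WT, where 11.2% and 11.6% of all tested genes were. The rows left out were chosen after their values were seen. They include every member that fell in KO Teff or was called in KO Treg, so those counts of 0 were fixed by the choice.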

How the data were processed

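Per the labels' protocols, polyadenylated RNA was selected, and single-end reads of 50 bases were made on a DNBSEQ instrument; no strand-marking step is named. The tools listed in the submitters' processing notes are DESeq2 1.28.1, Salmon 0.14.1, Trim Galore 0.4.4 and, for R, 4.0.3; the build is mm10. No source used here says how reads that match several genes were shared. Deposited by the authors were normalised read numbers (a signal per gene and library) with their log2 fold changes and adjusted p-values. Whole reads could not be recovered: 28.7% to 29.5% of positive values were multiples of the commonest step (tolerance 0.02), so no count test was run.

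log2(value + 1) was fitted with limma 3.58.1 (trend, robust; R 4.3.3), 1 coefficient per group over 8 libraries (4 residual degrees of freedom), genes with at least 10 in 2 libraries, 5 contrasts. The code was tested on simulated data. Reference transcripts and coordinates came from GENCODE M21 (GRCm38), where 97.1% of gene IDs matched with version. The reference transcript is the shortest with the principal coding sequence; it is long for Rps20 (3706 bases). A copy is a pseudogene, predicted gene or Rps27rt that shares at least 10% of its own 50-base windows with a member; its values were added to the member it shares most with. Sequences were aligned with Biopython 1.88. Members and gene lists were chosen with earlier results of these data known. Named were, per contrast, up to 6 called members per direction by p, the 5 highest and lowest per kilobase, members with paralogs or copies, and per list up to 4 called genes; Rpl10l is not analysed here, and a few genes the rule names are not reported here. Alternatives were 13 settings, 8 fits without a library and 1 added setting.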

Additional observations from a re-analysis of the deposited data

Results flagged for a closer look

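Rows that are not members stood above their level in WT. Rps18-ps6 averaged 5432 in KO Treg, against 30.4 in WT Treg, and 9999.8 in KO Teff, against 36.8 in WT Teff (n = 2 libraries each). Rps18-ps3 averaged 1803 in KO Treg, against 7.4 in WT Treg, and 3139 in KO Teff, against 35.3 in WT Teff. Both were picked out because they are copies of a member, outside the member rows, and each KO library was over 10 times each WT library of its cell type. The cause was not tested.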

How the results depend on the processing

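Of the counts, those for Treg against Teff stayed within 1.5 times, at 71 to 76 members in KO and 54 to 75 in WT, and the difference of KO effects called 0 members in all 21 alternatives (limma). For KO against WT in Treg, the 4 called members became 1 without the trend and robust steps, and 0 with -ps rows or sequence copies added, which joins the called rows; leaving out a library gave 1 to 5. For KO against WT in Teff, the 31 called members became 19 with quantile normalisation, 2 with only the groups compared and 3 without trend and robust steps, and 8 to 25 without a library; the cause was not tested. For settings other than the fits without a library, counts over all tested genes are not reported here. The Teff median was 0.18 to 0.30 without a library. Treg against Teff medians moved to -0.37 in WT and -0.58 in KO with quantile normalisation and to -0.67 in KO with library totals; without a library they were -0.54 to -0.42 and -0.77 to -0.72. Medians for Treg KO against WT were -0.03 to 0.00 without a library and those of the difference of effects -0.32 to -0.20, with 0 members called.

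With -ps rows or copies added, Rps18 turned to 0.27 in Treg and 0.54 in Teff, Rps7 to 0.54 in Teff (0.545 and 0.544), and Rps3a1 to -0.08 in Treg (-0.076 in both). Over all tested genes the deviations of same-numbered libraries correlated by -0.04 to 0.06, and over the 85 members by -0.70 to 0.51, with both signs, so the numbers were not treated as pairs. A fit with the replicate block called 3 members in Treg, 25 in Teff, 67 and 73 in Treg against Teff of WT and KO, and 0 for the difference of effects. The counts of that fit over all tested genes are not reported here. Precision is limited by 2 libraries a group.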
